A study of Mus musculus with 16 samples.

Results

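Chromosome 8 of the mouse was examined for H3K4me1, monomethylated lysine 4 of histone H3, in dendritic cells and in 3T3 fibroblasts, neither of them stimulated. Its members are all summits, the highest points of called peaks, that the deposited lists place on chromosome 8 of build mm9. They numbered 9275 of 161656 summits, 3687 of 79796 in dendritic cells and 5588 of 81860 in 3T3. They were counted in 27 windows of 5 Mb, and 1400 of them in each list formed mutually nearest pairs, with the summits of a pair at most 1000 bp apart. The chromosome was taken up because its numbers and scores had stood out in these same lists, so every value below is a description and none is a test.

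The series holds 16 samples, of which the 2 lists of unstimulated H3K4me1 are used here and the other 14 were not analysed. The dendritic cells, which take up and present antigen, were differentiated in GM-CSF from bone marrow progenitors infected with a retrovirus that carried a hairpin against JmjD2d, a histone demethylase. The 3T3 cells are an established mouse fibroblast line, grown under standard conditions, and no hairpin is named for them. Neither sample was treated: the stimuli of the series, LPS and TNF-alpha, were given to others. The cell type field of the 3T3 sample names dendritic cells, while its title, description, growth protocol and list header all give 3T3, and it was used as 3T3. Each cell type is 1 library, so no value has a replicate error, and differences due to cell type, to the hairpin and to the single libraries cannot be told apart.

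H3K4me1 marks enhancers, including ones that are not active at the time, and the flanks of active promoters. It is written mainly by the enzymes Kmt2c and Kmt2d, and its distribution differs strongly between cell types, whereas promoters are more often marked in common. Lines such as 3T3 that have grown for long in culture are known to carry unequal numbers of their chromosomes, and a ChIP signal reflects both the copies of a locus and the mark on it. Mouse chromosome 8 carries genes of both kinds of cell, among them Irf8, a transcription factor of myeloid and dendritic cell development, and Cdh11, a cadherin of mesenchymal cells. The annotation at hand is of GRCm38, not mm9, so no summit was assigned to a gene, cell identity was not checked at marker genes, and no sequence is shown.

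Chromosome 8 carried more H3K4me1 summits in 3T3 than in dendritic cells, and those that both shared scored higher in 3T3. Relative to the other 18 autosomes, the number ratio of 3T3 to dendritic cells was 1.51-fold, a log2 ratio of 0.59 (95% interval 0.53 to 0.65, exact Clopper-Pearson, counting error only). The other autosomes ranged from -0.45 on chromosome 12 to 0.31 on chromosome 13. At the 1400 shared pairs the median score was 49 in 3T3 and 39 in dendritic cells, against 36 and 40 at the 22661 pairs of the other autosomes. The score, a whole number that the lists do not name, is taken as the height of the read pileup at the summit. How the lists were scaled to each other is not recorded, and for that reason ratios of scores are read only relative to the other autosomes. Relative to those, the pairs of chromosome 8 had a 3T3 to dendritic cell ratio of 1.41-fold, a median log2 ratio of 0.49 (0.43 to 0.55, order statistics with pairs taken as independent). The other autosomes ran from -0.27 on chromosome 12 to 0.21 on chromosome 13. Chromosome 8 thus lay above all 18 in both ratios.

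Set against the other chromosomes of the same list, it was the 3T3 values that stood high. Chromosome 8 held 43.6 3T3 summits per Mb between its first and last summit, more than 16 of the 18 other autosomes, whose median was 33.8. Dendritic cells had 28.8 per Mb there, more than 4 of the 18, against a median of 32.1. Per protein-coding gene of the RefSeq table, of which chromosome 8 has 1043 (5.05% of those on autosomes), there were 5.36 3T3 summits and 3.54 dendritic cell summits. The medians of the other autosomes were 3.74 and 3.85. Dendritic cell summits were therefore somewhat fewer than on most autosomes, whether counted per Mb or per gene, while 3T3 summits were more numerous by both counts.

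Scores within each list showed the same division. The median 3T3 score on chromosome 8 was 38, against 33 on the other autosomes together and a range of 30 to 37 over them. The median dendritic cell score was 37, against 36, with a range of 35 to 38. Low 3T3 scores barely differed: the 5th percentile was 19 on chromosome 8 and 19 elsewhere, and the 25th percentile was 26 against 24. High scores differed more, with a 75th percentile of 63 against 49 and a 95th of 132 against 92, log2 differences of 0.36 and 0.52. In dendritic cells the same percentiles differed by 0 to 0.05 on the log2 scale. Both lists start at a score of 13, and both were called at the same p threshold.

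By score, the gap in number was widest among the highest summits. Scores of shared 3T3 summits were raised evenly instead, by a log2 difference from the other autosomes of 0.44 at the 50th percentile and 0.46 at the 95th. A rise of all scores by itself changes the numbers above a fixed score, and its part was not tested. A score of 100 or more was reached by 588 of the 5588 3T3 summits on chromosome 8 (10.5%, 95% interval 9.73 to 11.4), against 3.86% on the other autosomes, which ranged from 0.857% on chromosome 12 to 6.34% on chromosome 17. Dendritic cells had 191 such summits on chromosome 8 (5.18%, 4.49 to 5.95), against 4.48% and a range of 3.00 to 5.81%. Chromosome 8 thus held 16.9% of all autosomal 3T3 summits at this height and 5.41% of those of dendritic cells. Its shares of autosomal summits of any height were 6.94 and 4.71%. The 3T3 summits of this height were found along the chromosome: 24 of its 27 windows had more of them than of their dendritic cell counterparts, 2 had equal numbers and 1, the first window, had fewer, 3 against 4. This count compares deposited scores directly between the lists. Windows of the other autosomes were not counted in this way, so how unusual it is was not tested. The windows from 70 to 75, 120 to 125 and 125 to 130 Mb held 223 of the 588 (37.9%). These windows were also dense in 3T3 summits of any height, with 421, 396 and 478 of the 5588. Of the 588, 72.4% had no dendritic cell summit within 1000 bp, against 65.2% of equally high 3T3 summits on the other autosomes.

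**Figure D1:**
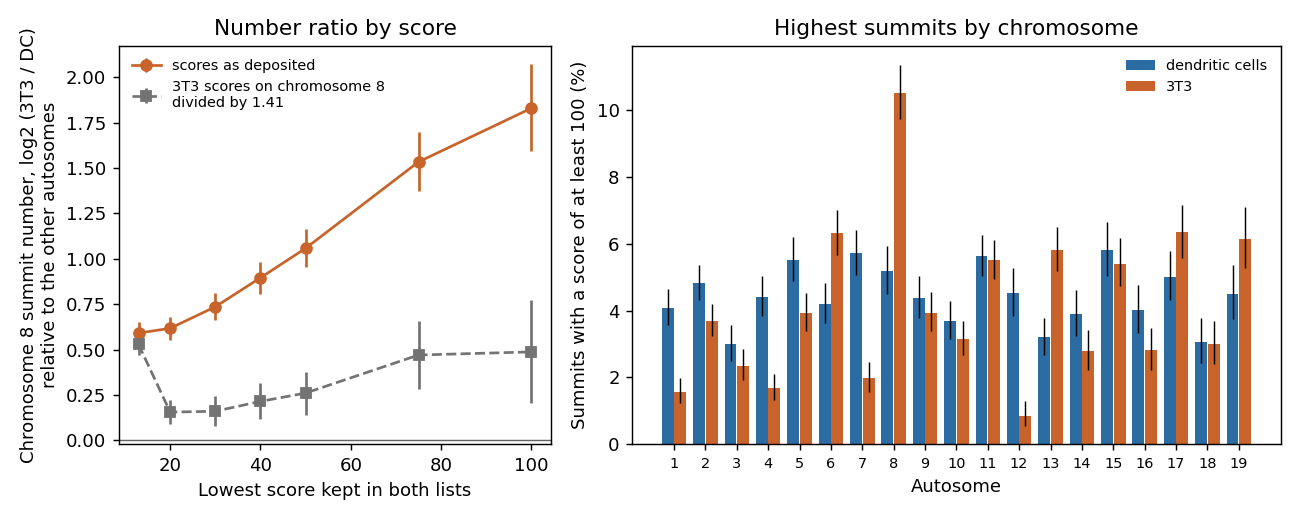
Left, log2 ratio of 3T3 to dendritic cell summit numbers on chromosome 8 relative to the other autosomes, for summits at or above the score on the x axis, with scores as deposited (circles) and with 3T3 scores on chromosome 8 divided by 1.41 (squares). Right, percentage of each autosome's summits with a score of at least 100 in dendritic cells and 3T3. Bars are exact 95% intervals of counting error; the 3T3 bar of chromosome 8 stands at 10.5%.

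The number ratio therefore rose with the score demanded of a summit. It was 0.62 on the log2 scale for scores of at least 20, 0.74 at 30, 0.90 at 40, 1.06 at 50, and 1.83 (1.59 to 2.07) at 100, a 3.55-fold excess. For comparison, the 3T3 scores on chromosome 8 were divided by 1.41, the ratio found at its shared pairs, before the same minimum was applied to both lists. The number ratio then fell to 0.16 (0.09 to 0.22) at a minimum of 20, 0.16 at 30 and 0.22 at 40, and was 0.49 (0.21 to 0.77) at 100. Dividing 3T3 scores alone can only lower this ratio, and the factor was taken from pairs of these same lists. No other chromosome was treated in this way, so the size of the fall has no reading of its own. The ratio stayed above 0 at every minimum tried. At 13, the lowest score in the lists, the division removed few summits and the ratio was 0.53.

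Along the chromosome, 3T3 summits outnumbered those of dendritic cells in nearly every stretch. Relative to the other autosomes the number ratio was above 0 in 25 of the 26 windows with at least 20 summits in the lists together, whereas 45.8% of 456 such windows on the other autosomes were. The window ratios had a median of 0.58 with a middle range (25th to 75th percentile) of 0.36 to 0.88, against a median of -0.04 and a middle range of -0.38 to 0.27 elsewhere. In 22 of the 26 the whole counting interval lay above 0, and in none did it lie below, against 21.7 and 24.1% on the other autosomes. These 25 windows followed each other, with only the near-empty window from 50 to 55 Mb passed over, and the longest such stretch elsewhere was 11 windows, on chromosome 13.

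**Figure D2:**
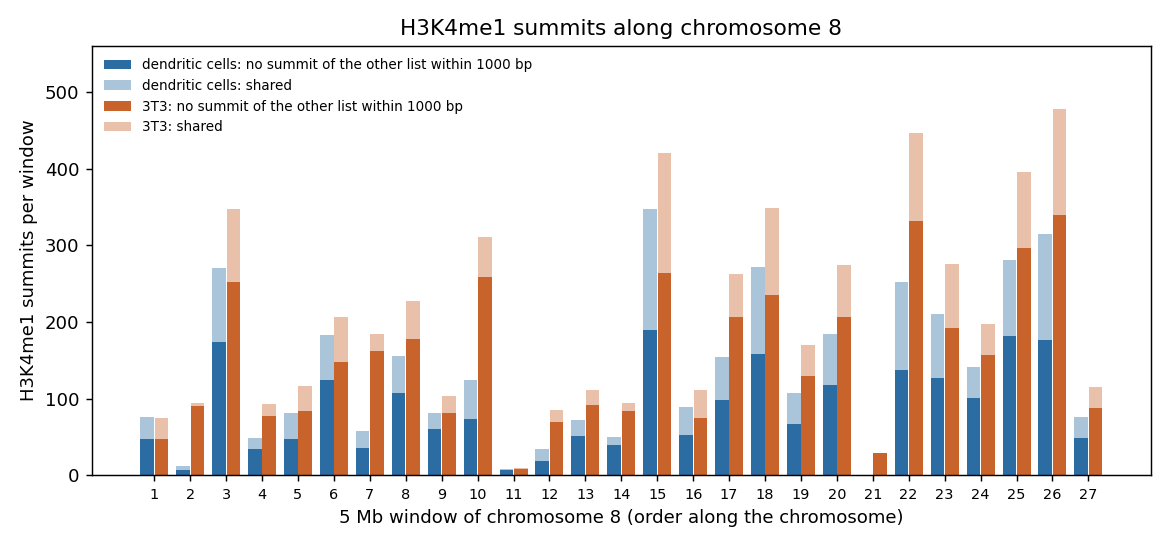
H3K4me1 summits in each of the 27 windows of 5 Mb of chromosome 8, in order along the chromosome, in dendritic cells (blue) and 3T3 (orange). The dark part of a bar counts summits with no summit of the other list within 1000 bp and the light part the shared ones; the tallest bars are those of the windows from 105 to 110 and 125 to 130 Mb, with 447 and 478 3T3 summits.

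The first 35 Mb held both the exception and some of the widest gaps. Up to 5 Mb there were 76 dendritic cell and 75 3T3 summits, a log2 ratio of -0.03 (-0.51 to 0.45). From 5 to 10 Mb there were 12 and 95, a 7.87-fold excess of 3T3 (log2 2.98, 2.10 to 3.98). From 10 to 15 Mb both lists were dense, with 270 and 348. The windows from 15 to 20 and from 20 to 25 Mb held 49 and 93, and 81 and 117. From 25 to 30 Mb the numbers were nearer, 183 and 207 (0.17, -0.12 to 0.46). From 30 to 35 Mb, dendritic cells had 58 and 3T3 184, a 3.15-fold excess (1.66, 1.22 to 2.11).

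The middle of the chromosome was sparser in both lists. From 35 to 40 Mb there were 156 dendritic cell and 227 3T3 summits, and from 40 to 45 Mb 81 and 103. From 45 to 50 Mb there were 125 and 311, a 2.47-fold excess (1.31, 1.002 to 1.62). The next window, from 50 to 55 Mb, was the emptiest with 9 and 10, under the minimum for a ratio. From 55 to 60 Mb there were 34 and 85, from 60 to 65 Mb 72 and 112, and from 65 to 70 Mb 50 and 94. Low numbers there widen the intervals, but all 3 of these windows lay above the other autosomes' ratio with their whole interval.

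From 70 Mb on, the log2 ratios lay between 0.27 and 0.82, except in the window from 100 to 105 Mb. From 70 to 75 Mb the lists held 347 and 421 summits (0.27, 0.06 to 0.48), the most of any window in dendritic cells. From 75 to 80 Mb there were 89 and 111, from 80 to 85 Mb 155 and 263, and from 85 to 90 Mb 272 and 349. From 90 to 95 Mb there were 107 and 170, and from 95 to 100 Mb 184 and 274. The window from 100 to 105 Mb was nearly bare in dendritic cells, with 1 summit against 29 in 3T3, a 28.8-fold ratio that rests on that single count (log2 4.85, 2.26 to 10.2). From 105 to 110 Mb the numbers were 252 and 447 (0.82, 0.59 to 1.05). The remaining windows held 210 and 276, 142 and 198, 281 and 396, 315 and 478, and, in the incomplete last window from 130 Mb, 76 and 115. Their ratios lay between 0.39 and 0.59.

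Windows with few dendritic cell summits thus had the widest gaps. Pooled over the 12 windows with under 100 dendritic cell summits the log2 ratio was 0.83, over the 7 with at least 100 and under 200 it was 0.64, and over the 7 with 200 or more it was 0.47. The other autosomes had the same order at a lower level, with 0.25, 0.07 and -0.10. Because the dendritic cell number defines these classes and is also the denominator of the ratio, the order within either set has no reading of its own. Within each class chromosome 8 was the higher by 0.57 to 0.58. An excess of at least 2-fold in 3T3 was found in 5 of 26 windows, against 5.48% of windows elsewhere, and no window had an excess of that size in dendritic cells, against 6.36%.

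The shift in score was more even than that in number, as score ratios were elsewhere too. In windows with at least 20 shared pairs, number ratios had an SD of 0.37 on chromosome 8 and 0.49 elsewhere. Of the windows of chromosome 8, 21 held 20 or more shared pairs, and all 21 had a median score ratio above that of the other autosomes, against 50.1% of 355 such windows elsewhere. Their values ran from 0.15 to 0.66 with an SD of 0.15, while the other autosomes' windows ran from -0.55 to 0.58 with an SD of 0.20. That pooled SD includes differences between chromosomes. Taken singly, the other autosomes had SDs from 0.11 on chromosome 18 to 0.26 on chromosome 13, so the evenness was not particular to chromosome 8. In 15 of the 21 the whole interval lay above 0 and in none below, against 9.86 and 11.5% elsewhere. The share of pairs with the higher relative score in 3T3 was 72.1% over the chromosome and at least 55.1% in each of these windows. A stretch of 15 windows on chromosome 11 was the longest elsewhere with every score ratio above 0, and on chromosome 19 12 of 13 windows were, while chromosomes 11 and 19 had number ratios of only 0.12 and 0.03.

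**Figure D3:**
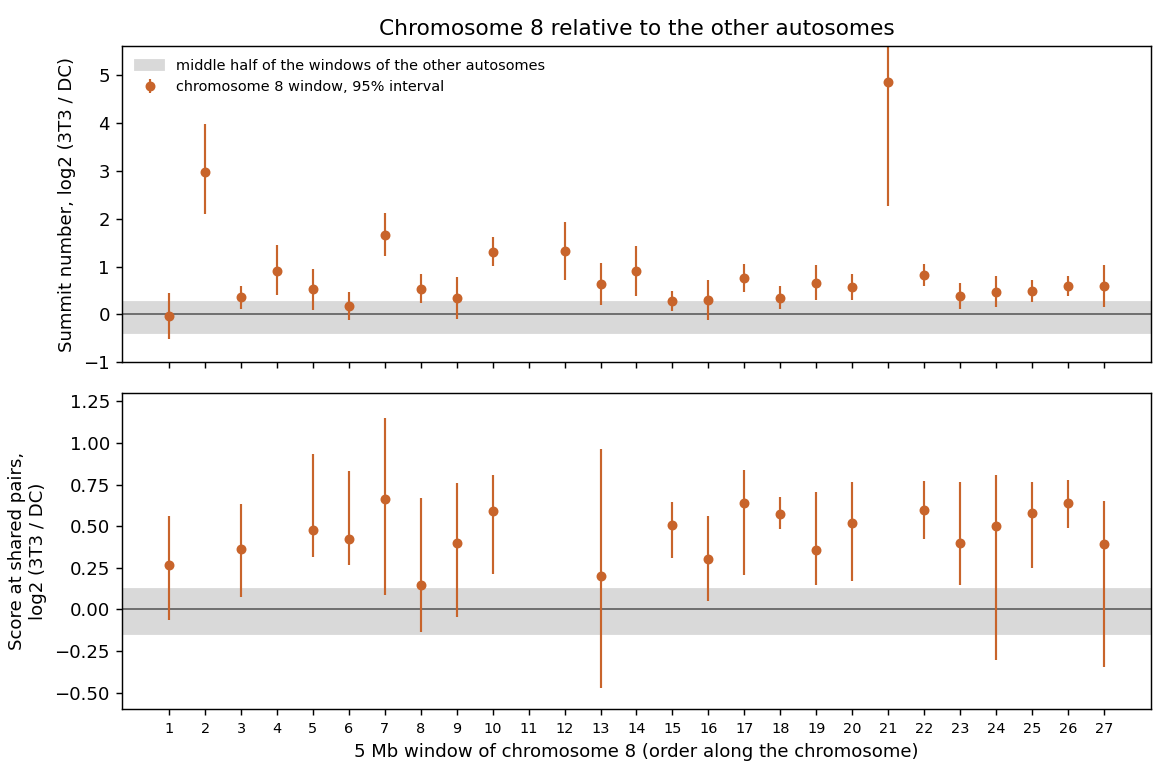
Log2 ratio of 3T3 to dendritic cells in the windows of chromosome 8, relative to the other autosomes: summit number in windows with at least 20 summits (top) and median score at shared pairs in windows with at least 20 pairs (bottom). Points are windows, vertical lines 95% intervals (that of window 21, from 100 to 105 Mb, runs past the axis to 10.2), and the grey band holds the middle of the windows of the other autosomes, from -0.38 to 0.27 and from -0.14 to 0.12.

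The highest score ratios were found from 30 to 35 Mb (0.66, 0.09 to 1.15, 22 pairs), from 80 to 85 Mb (0.64, 0.20 to 0.83, 57 pairs) and from 125 to 130 Mb (0.64, 0.49 to 0.78, 139 pairs). The lowest were found from 35 to 40 Mb (0.15, -0.14 to 0.67, 49 pairs), from 60 to 65 Mb (0.20, -0.47 to 0.96, 20 pairs) and from 0 to 5 Mb (0.27, -0.06 to 0.56, 28 pairs). The intervals of the highest and lowest windows overlapped, so their order is not resolved by these pairs. The first window, with 76 dendritic cell and 75 3T3 summits, had 17 of 28 pairs with the higher relative score in 3T3. From 5 to 10 Mb, where the numbers differed 7.87-fold, only 5 pairs could be compared. Cut at 65 Mb, the proximal part had a number ratio of 0.70 (0.59 to 0.80) and a score ratio of 0.40 (0.31 to 0.48). The distal part had 0.54 (0.46 to 0.61) and 0.54 (0.48 to 0.59), so the order of the parts was opposite in the 2 ratios.

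The score shift varied in size with the pairs compared and was smallest among those with low scores. Among pairs grouped by dendritic cell score, chromosome 8 exceeded the other autosomes by 0.53 to 0.56 in each class from 26 upwards. It did so by 0.28 (0.13 to 0.36) in the class from 13 to 25. With dendritic cell scores of 51 to 75, for example, the 3T3 partners had a median score of 62 at 328 pairs on chromosome 8 and of 41 at 4651 pairs elsewhere. Grouped by the distance between the summits of a pair, from up to 50 bp to over 500 bp, the shift was 0.45 to 0.54. Grouped by the geometric mean of both scores it was 0.06 (-0.01 to 0.21) up to 25 and 0.39 to 0.63 in the classes above. Over the quartiles of the pair ratios the shift was 0.46 at the 25th percentile, 0.49 at the 50th and 0.44 at the 75th, and it was 0.21 at the 5th and 0.37 at the 95th. A relative score at least 2-fold higher in 3T3 was found at 335 of 1400 pairs (23.9%), against 11.8% of pairs elsewhere, and at least 2-fold higher in dendritic cells at 104 (7.43%), against 11.4%.

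Set beside windows elsewhere, those of chromosome 8 lay at the upper right, where 3T3 was higher in number and in score. Both ratios were above 0 in 20 of 21 windows, against 31.3% of windows elsewhere. The median score ratio of its windows, 0.47, was exceeded by 3 of the 355 other windows. All 3, singled out after their values were seen, lay on chromosome 13 and began at 30000001, 45000001 and 50000001, with ratios of 0.52, 0.54 and 0.58. The middle range of score ratios on chromosome 8 (0.36 to 0.58) takes in 11 of its own windows, a number fixed by that definition. Elsewhere 10 of the 355 windows fell in it, on 3 chromosomes, with 5 of them on chromosome 13. The number ratios of these 11 and 10 windows had medians of 0.39 and 0.62, with ranges of 0.17 to 0.59 and 0.04 to 1.62. Across windows, number and score ratios had a Spearman rho of 0.45 over the 21 of chromosome 8 and 0.48 over the 355 others. These windows share 2 libraries, and pairs are part of the summits counted.

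**Figure D4:**
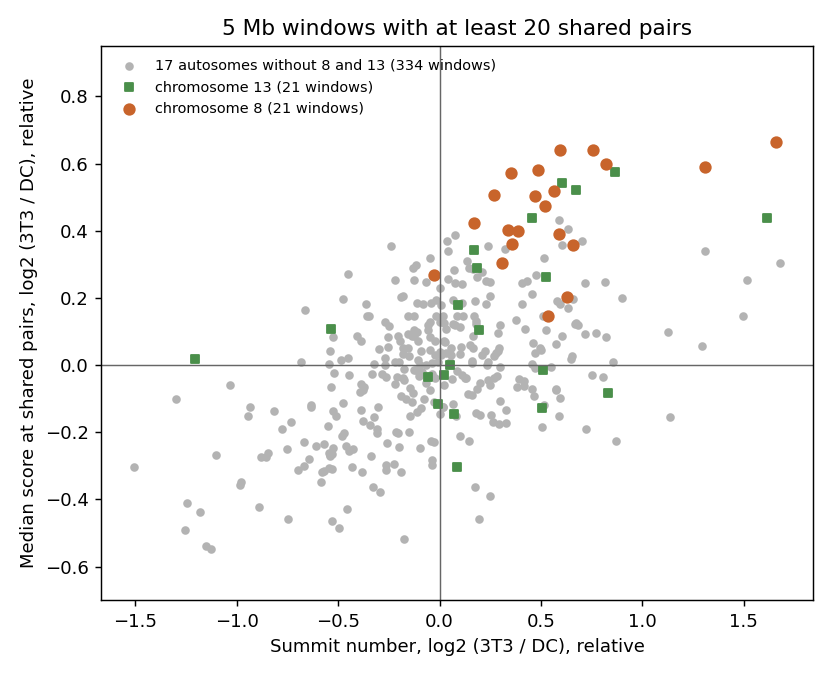
Each point is a window of 5 Mb with at least 20 shared pairs, by its log2 ratio of 3T3 to dendritic cell summit number (x axis) and median log2 score ratio at shared pairs (y axis), both relative to the autosomes other than chromosome 8. The 21 windows of chromosome 8 lie at score ratios of 0.15 to 0.66, and the windows of chromosome 13 are spread from -0.30 to 0.58.

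Most of the additional 3T3 summits of chromosome 8 had no dendritic cell summit nearby, which also held for most 3T3 summits elsewhere. Dendritic cell summits were themselves fewer per Mb on chromosome 8 than on most autosomes, 28.8 against a median of 32.1. A number expected from them is lowered by this. At the rates of the other autosomes, the 3687 dendritic cell summits of chromosome 8 would go with 3709 3T3 summits, and 5588 were listed. Of these, 4184 were restricted to 3T3, with no dendritic cell summit within 1000 bp, a 1.62-fold excess (1.57 to 1.67) over the 2586 at those rates. The shared ones numbered 1404, a 1.25-fold excess (1.19 to 1.32) over 1123. Shared 3T3 summits are limited by the dendritic cell summits present, and what this alone gives to the difference in excess was not tested. As a share of the 3T3 list on each side, 74.9% (73.7 to 76.0) were restricted to 3T3 on chromosome 8 and 69.7% (69.4 to 70.0) elsewhere. This share lay above that of 17 of the 18 other autosomes. That of chromosome 13 was higher, so a share of this size was not particular to chromosome 8. Restricted dendritic cell summits made up 62.0% (60.4 to 63.6) on chromosome 8, the lowest of the 19 autosomes, and 69.5% (69.2 to 69.8) elsewhere. The denser 3T3 list on this chromosome itself makes a chance neighbour more likely for a dendritic cell summit, and how much of the difference this gives was not tested.

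The 2 kinds of 3T3 summit differed in the part of the range in which their scores lay higher. Shared 3T3 summits had a median of 49 on chromosome 8 and 36 elsewhere, a log2 difference of 0.44, which was 0.44 at the 75th and 0.47 at the 90th percentile. Restricted 3T3 summits had medians of 35 and 32, a difference of 0.13, which grew to 0.27 at the 75th and 0.47 at the 90th percentile, where the scores were 100 and 72. Restricted dendritic cell summits had medians of 35 and 34. The raised scores were thus found over most of the range among shared 3T3 summits and mainly in the upper part among restricted ones. No summit of either list scores below 13, and the lower percentiles depend on how many weak summits passed the p threshold. Whether this accounts for the contrast was not tested.

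Long distances and long runs went the same way as the numbers. Unequal numbers in the lists by themselves make stretches of 3T3 summits alone more likely, and how much of the differences below this gives was not tested. No dendritic cell summit lay within 20 kb of 1673 3T3 summits (29.9%, 28.7 to 31.2), against 24.4% of 3T3 summits on the other autosomes. In the other direction 283 dendritic cell summits (7.68%, 6.84 to 8.58) had no 3T3 summit within 20 kb, against 15.6%. Of 874 windows of 100 kb with any summit, 256 held 3T3 summits alone (29.3%, against 20.9% elsewhere) and 53 dendritic cell summits alone (6.06%, against 11.3%). With a minimum of 10 summits in such windows, 33 were left for 3T3 (3.78%, against 1.4% elsewhere) and 1 for dendritic cells (0.114%, against 0.524%). Runs of 20 or more restricted summits of a list, with none restricted to the other list between them, numbered 31 in 3T3 and took in 1258 of 4184 restricted summits (30.1%, against 19.4% elsewhere). In dendritic cells there were 2, with 52 of 2287 (2.27%, against 7.17%).

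Dendritic cell stretches were nevertheless present on chromosome 8. Their longest run held 28 restricted summits from 27466380 to 27745896, with scores that had a median of 28.5 and reached 86. The next held 24, from 82687458 to 82987492, with a median of 40.5 and a highest of 114. Of windows of 100 kb, the 3 in which dendritic cell summits were most in excess began at 82800001, 111100001 and 27700001, with 13, 15 and 11 summits against 1, 3 and 1 in 3T3. Their median dendritic cell scores were 53, 34 and 47. Of the 39 dendritic cell summits in these windows, 2 had a 3T3 summit within 1000 bp.

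The longest 3T3 runs held more summits than those of dendritic cells. On the other autosomes the longest run held 158 summits in 3T3 and 107 in dendritic cells, so a 3T3 run of such length was not particular to chromosome 8. After the run of 153 summits that starts at 105061586, the next held 80 restricted summits over 3459 kb, from 42943575 to 46402622, with scores that had a median of 33.5 and reached 116. The 3 windows in which 3T3 summits were most in excess were empty in dendritic cells: that from 129600001 to 129700000 held 19, and the neighbouring windows from 46600001 to 46700000 and from 46700001 to 46800000 held 14 and 18. The window from 46600001 had the highest median score of these, 59.5, and a highest score of 283. These neighbours lie in the 5 Mb window whose numbers were 125 and 311.

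Of the 3 highest summits of each list, 1 of dendritic cells was shared, and the others had no summit of the other list within 1000 bp. The highest dendritic cell summit, at 124544822 with a score of 230, had a 3T3 neighbour of 244 at a distance of 4 bp. The next, at 73814399 with 193 and at 13035773 with 186, had their nearest 3T3 summits 8532 and 6862 bp away, with scores of 42 and 30. The highest 3T3 summits were at 129138820 with a score of 337, at 124711163 with 291 and at 122907339 with 289. Their nearest dendritic cell summits lay 5682, 6227 and 1136 bp away and scored 139, 92 and 23. The 3 highest 3T3 summits thus lay between 120 and 130 Mb, where 3T3 had 164 and dendritic cells had 61 summits of at least 100.

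Single pairs departed far from the median of the chromosome in both directions. The 3T3 score was 12.3-fold higher, relative to the other autosomes, at 124819914 (211 against 19 at a distance of 889 bp). It was 11.8-fold higher at 124750683 (287 against 27 at 679 bp) and 10.7-fold higher at 36661615 (154 against 16 at 405 bp). The dendritic cell score was 7.68-fold higher at 119821783 (170 against 20 at 35 bp), 7.32-fold higher at 124316987 (162 against 20 at 414 bp) and 6.75-fold higher at 123310891 (127 against 17 at 836 bp). Of these 6 pairs, that at 119821783 was the only one with summits within 50 bp of each other, and the others may join neighbouring elements. Sites with the higher score in dendritic cells thus occurred within the same windows in which the median score was higher in 3T3.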

How the data were processed

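Per the labels' protocols, DNA of formaldehyde-fixed nuclei was sheared to about 300 bp, amplified for 18 PCR cycles and sequenced in single 36 bp reads. The submitters' processing notes name Bowtie, MACS 1.4 and mm9. Per the file headers, peaks were called at p 1e-04 without a fragment model or local background, with a shift of 150 bp. The sources used here do not say whether input entered the calling, and give no read totals, so depth is unknown. The deposited lists give every summit 1 base and an unnamed score, read here as a signal, the pileup height.

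Shared summits have a summit of the other list within 1000 bp, and restricted ones have none. Pairs are mutually nearest summits within that distance, placed by their midpoint. Ratios are relative to the 18 other autosomes, and windows of 5 Mb need 20 summits or pairs. Positions are 1-based. The 95% intervals are exact Clopper-Pearson (numbers, shares), exact Poisson (excess over other autosomes) or order statistics (medians), and cover counting error only, with neighbouring summits taken as independent. Named are the 3 highest and lowest windows by each ratio, the 3 windows of 100 kb with most excess of each list, the 3 highest summits of each list, the 3 most extreme pairs each way and the 2 longest runs. Chromosome 8, these rules and the alternatives were chosen with earlier results of these data known. The minimum of 100, the density classes and the counts per Mb and per gene were added after seeing the values. RefSeq's GRCm38 table gave gene numbers only. The computation was tested on simulated lists with planted ratios. Software: Python 3.11.15 with numpy 2.4.6, pandas 2.3.3, scipy 1.17.1, matplotlib 3.10.9.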

Additional observations from a re-analysis of the deposited data

How the results depend on the processing

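No setting reversed the number or the score ratio of chromosome 8, and 29 of 46 alternative values stayed within the counting interval of the value reported or, for numbers of windows, within 1.5 times of it. With the 39898 top-scoring summits of each list, the log2 number ratio was 0.83 and the score ratio 0.39, all 10 windows with enough pairs had a score ratio above 0, and 81.7% of 3T3 and 68.4% of dendritic cell summits were restricted. The number ratio was 1.83 for scores of at least 100, a choice made after seeing the data, and 0.70 in the proximal part. With 3T3 scores divided by the pair ratio it was 0.16, 0.16 and 0.22 at minimums of 20, 30 and 40. Windows of 2 Mb gave 50 of 57 with a number ratio above 0 and 25 of 26 with a score ratio above 0. Windows of 10 Mb gave 14 of 14 in number and 13 of 13 in score. These totals change with the number of windows. At shared distances of 500 and 2000 bp, 80.6 and 66.0% of 3T3 and 70.6 and 48.7% of dendritic cell summits were restricted. No paired analysis was possible because each cell type is 1 library, so no library was omitted in turn. With no read totals, the absence of a summit shows only that the caller listed none there. Input DNA, which carries the number of copies of a locus without the mark, was not analysed here, so copies of chromosome 8 and H3K4me1 on it cannot be told apart.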
